A study of Mus musculus with 10 samples.

Results

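The 48 genes described here encode proteins that copy DNA or carry a cell through mitosis. They were chosen by name, with earlier results of these data known, out of 55291 genes in the deposited count table. They comprise 23 genes of DNA replication, 22 genes of mitosis and 3 genes of transcription factors that act on genes of these kinds. All 48 passed the filter on low counts and entered the model, which tested 20068 genes. They were measured by RNA sequencing of total RNA from bulk sorted regulatory T (Treg) cells, the CD4+ T cells that express Foxp3 and restrain other immune cells. All animals were Foxp3YFP-cre mice, in which the Foxp3 gene carries a fluorescent reporter and Cre. The LN group held Treg cells from lymph nodes of mice with no tumour and no treatment (4 libraries). The Hepa1-6 group held Treg cells from tumours that grew after subcutaneous injection of Hepa1-6, a mouse hepatoma line, taken at day 23 (4 libraries). The E.G7 group held Treg cells from tumours of E.G7, an ovalbumin-expressing line derived from the T lymphoma EL4, taken at day 21 (2 libraries). Treg cells were sorted from isolated CD4+ T cells. The labels do not say whether the replicates came from separate animals, so the p-values rest on a spread between libraries that may be only technical. In bulk RNA, a larger share of dividing cells and more RNA of these genes per cell cannot be told apart.

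A cell that is about to divide first licenses its origins of replication. The origin recognition complex, CDC6 and CDT1 load the ring of MCM2 to MCM7 onto DNA, and CDC45 with the GINS complex turns that ring into the active helicase. At the fork, primase and DNA polymerase alpha start each new strand, the PCNA clamp holds the polymerases on the template, and FEN1 and DNA ligase I join the fragments, while ribonucleotide reductase, thymidylate synthase and thymidine kinase supply nucleotides. Genes of this class are usually switched on around the start of S phase by E2F factors. Mitosis genes are usually switched on later, in G2, by a complex of MYBL2 and FOXM1 that is brought to the promoter element called CHR. Treg cells in lymph nodes are mostly resting, and those in tissues and tumours often cycle.

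The promoters of the 2 classes held 2 kinds of letters at different frequencies. The sequence played no part in choosing the 48 genes, but the 5 stretches shown are examples picked to hold such letters. No test of the frequencies was run. RefSeq promoters (GRCm38.p6, 300 bases each, 250 before the start and 50 after it) were found for 38 of the 48 genes, 19 of replication, 17 of mitosis and 2 of transcription factors (Mybl2 and E2f1). Both strands were searched for E2F-type letters (TTTGGCGC, TTTCCCGC, TTTCGCGC or TTTGCCGC, which can overlap each other), for CHR letters (TTTGAA or TTTAAA) and for CCAAT. In the stretches below, capitals mark the E2F-type and CHR letters on either strand, and all stretches read 5′ to 3′ on the minus strand, the strand of each gene.
Mcm3 (chr1:20820263-20820332) and Mcm6 (chr1:128359726-128359825) are replication genes whose promoters held E2F-type letters.
Mcm3: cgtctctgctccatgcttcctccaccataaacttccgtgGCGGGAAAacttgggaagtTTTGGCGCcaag
Mcm6: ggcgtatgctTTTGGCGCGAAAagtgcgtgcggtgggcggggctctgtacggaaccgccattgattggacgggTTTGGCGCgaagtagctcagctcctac
Cdc20 (chr4:118437334-118437403) and Ccnb1 (chr13:100786507-100786596) are mitosis genes whose promoters held CHR letters, and Cdk1 (chr10:69352913-69353052) is the mitosis gene that held both kinds of letters.
Cdc20: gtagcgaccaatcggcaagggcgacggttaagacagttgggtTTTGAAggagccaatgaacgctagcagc
Ccnb1: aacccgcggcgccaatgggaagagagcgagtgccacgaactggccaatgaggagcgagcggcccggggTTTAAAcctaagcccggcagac
Cdk1: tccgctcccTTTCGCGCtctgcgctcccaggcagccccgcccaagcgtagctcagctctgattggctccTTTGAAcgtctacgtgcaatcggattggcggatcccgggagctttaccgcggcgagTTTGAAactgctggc
E2F-type letters stood in 8 of 19 replication promoters (42.1%: Mcm3, Mcm5, Mcm6, Mcm7, Cdc6, Cdt1, Pola1 and Lig1). Of the 17 mitosis promoters 1 held them (5.88%, Cdk1), beside 2.60% of all 27025 genes with a promoter. CHR letters stood in 15 of 17 mitosis promoters (88.2%) and in 7 of 19 replication promoters (36.8%), beside 30.6% of all genes. With TTTGAA alone, 12 mitosis promoters and 3 replication promoters held them, beside 20.2% of all genes. CCAAT was found in 15 of 17 mitosis promoters and 12 of 19 replication promoters, beside 41.1% of all genes. Among the 17492 protein-coding genes with a promoter, 3.29% held E2F-type letters and 28.2% CHR letters. TTTGAA alone stood in 18.5% of them and CCAAT in 42.3%. In Mybl2 and E2f1 none of these letters was found in the window. A match is a description of the sequence and not evidence of binding.

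Counted reads per library numbered 22665563 to 24472849 for LN, 26224286 to 26665325 for Hepa1-6, and 26585350 and 26663336 for E.G7. Values below are in CPM, read counts divided by library sizes that were scaled by the trimmed mean of M values. Levels of different genes are compared only in FPKM, the authors' unit, which also divides by gene length. Foxp3 was present in every library (94.1 to 119 CPM in LN, 73.8 to 97.3 in Hepa1-6 and 47.1 to 53.3 in E.G7). RNA of other cell types was also present in the tumour libraries. The summed level of 14 myeloid markers was 25.1 to 36.8 CPM in LN, 3812 to 4109 in Hepa1-6 and 737 to 768 in E.G7, and all 14 were higher in each tumour group than in LN. Of 15 hepatoma and liver markers the sum was 28.8 to 34.8 CPM in LN, 2108 to 2286 in Hepa1-6, with H19 and Serpina1a at 0 there, and 125 to 140.2 in E.G7. Apoe made up most of the sums in LN (21.2 to 28.6 CPM) and E.G7 (120 to 136 CPM). Of the 15 markers, 13 in LN, 8 in Hepa1-6 and 12 in E.G7 had means under 1 CPM. The 7 markers of immature T cells and of the EL4 lineage summed to 20.1 to 21.3, 192 to 203 and 219 to 227 CPM, but Cd8a (128 to 135 CPM) and Cd8b1 (61.4 to 72.5 CPM), which CD8 T cells also express, made up nearly all of the Hepa1-6 sum. Among the other 5, Dntt was at 1.86 to 2.81 CPM in LN, 2.61 to 2.98 in Hepa1-6 and 43.4 to 49.8 in E.G7, Trap1a was at 121 to 132 CPM in E.G7 and at most 0.206 CPM in any other library, and Rag1 and Rag2 were at 0 in E.G7. The 10 CD8 T and NK cell markers summed to 33.9 to 41.3, 859 to 929.5 and 325 to 328 CPM, the 10 stromal markers to 223 to 240.0, 1115 to 1207 and 137 to 165 CPM, the 7 B cell markers to 826 to 935, 371 to 441 and 622 to 631 CPM, and the 6 erythroid markers to 1.93 to 4.62, 33.8 to 39.0 and 9.02 to 9.05 CPM. Of the stromal markers 9 were called higher than LN in each tumour, while Pecam1, which made up most of the LN sum (219.9 to 236 CPM), was called lower in both. The 6 Treg markers summed to 2282 to 2490.1, 3475 to 3622 and 2656 to 2731 CPM. Ctla4 and Tnfrsf18 were called higher than LN in each tumour, and 3 of the other 4 in Hepa1-6 and all 4 in E.G7 were called lower, Il2ra among the latter (562 to 626 CPM in LN and 281 to 287 in E.G7). The general T cell markers summed to 6310.1 to 6781, 5288 to 5457 and 5273 to 5351 CPM. The part of this other RNA in the values of the 48 genes and of the related genes was not tested.

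All 48 genes were higher in the libraries of both tumours than in those of LN. Against LN, 48 of 48 were called higher in Hepa1-6 (edgeR quasi-likelihood test, Benjamini-Hochberg adjusted p under 0.05 over all genes tested), where 37.0% of all genes tested were called higher. The median log2 fold change of the 48 was 1.80 beside 0.04 for all genes tested, and 36 of them were at least 2-fold higher, as 23.5% of all genes tested were. In E.G7, 48 of 48 were called higher than in LN, where 32.7% of all genes tested were called higher. Their median log2 fold change was 2.69 beside 0.01 for all genes tested, and all 48 were at least 2-fold higher, as 19.1% of all genes tested were. No LN library reached the lowest library of either tumour for any of the 48 genes, a separation that 34.1% of all genes tested showed for Hepa1-6 and 36.6% for E.G7. The rise was uneven between the classes: in Hepa1-6 the median log2 fold change was 0.95 for replication genes and 2.15 for mitosis genes, and in E.G7 it was 2.06 and 2.90.

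**Figure D1:**
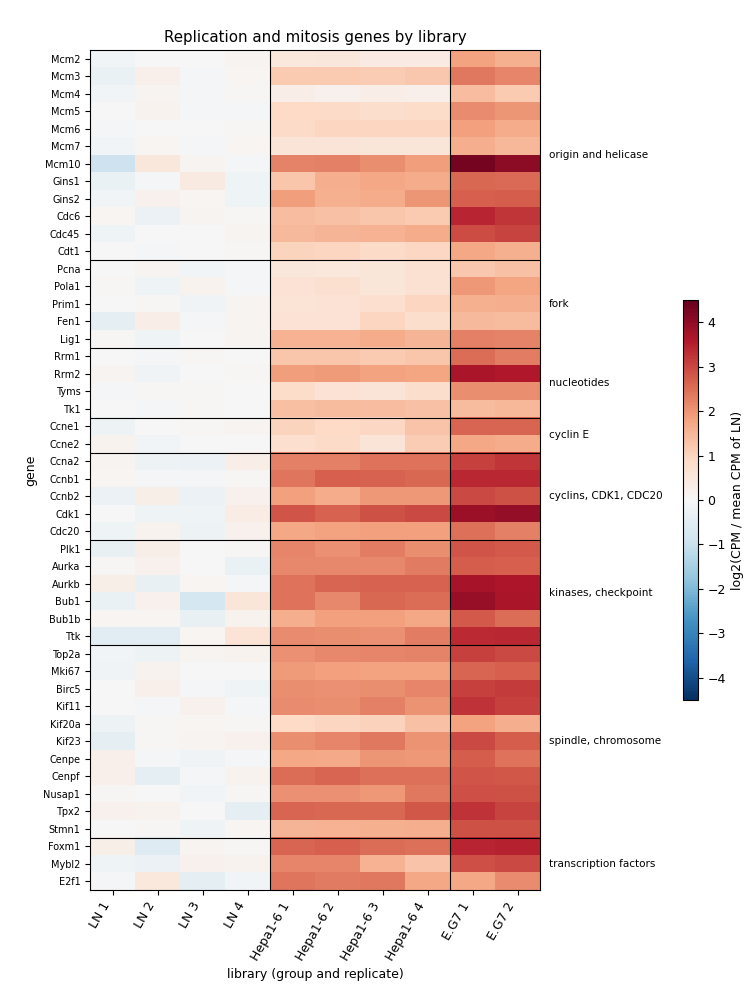
Level of each of the 48 genes (rows, grouped by role) in each of the 10 libraries (columns), as log2 of CPM over the mean CPM of LN. The LN columns are near 0 for nearly every gene, the Hepa1-6 columns are darker for the mitosis genes (class median log2 fold change 2.15) than for the replication genes (0.95), and the E.G7 columns are the darkest for nearly every gene.

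The 12 genes of origin licensing and the helicase rose in Hepa1-6 by log2 fold changes of 0.26 to 2.13 (median 1.06) and in E.G7 by 1.29 to 4.18 (median 2.18). The 6 subunits of the MCM ring rose by 0.26 to 1.18 in Hepa1-6 and by 1.29 to 2.30 in E.G7. Gene positions are on mm10, as the count table lists them. Mcm4 (chr16:15623897-15637400) was counted at 122, 144, 129.6 and 136 CPM in LN, at 162, 153, 165 and 156 CPM in Hepa1-6 and at 350.0 and 302 CPM in E.G7. Its Hepa1-6 libraries lay just above LN without overlap, the smallest rise of the 48 genes (log2 fold change 0.26 ± 0.06 (SE), adjusted p 0.00151), whereas E.G7 stood well clear (log2 fold change 1.29 ± 0.07, adjusted p 3.82e-10). With upper-quartile scaling the Mcm4 difference between Hepa1-6 and LN lost its call (log2 fold change 0.08, adjusted p 0.253). Mcm2 (chr6:88883474-88898780) was at 98.9, 109.9, 106 and 117 CPM in LN, 149.7, 152, 138 and 140.3 in Hepa1-6 and 379 and 325 in E.G7. The step from LN to Hepa1-6 was 1.34-fold (log2 0.43 ± 0.06, adjusted p 2.66e-05), and the step from LN to E.G7 was 3.25-fold (log2 1.70 ± 0.08, adjusted p 2.23e-11). For Mcm5 (chr8:75109569-75128439) the libraries gave 87.3, 97.5, 82.0 and 82.4 CPM in LN, 161, 158, 149.6 and 156 in Hepa1-6 and 380.5 and 349.8 in E.G7. The 3 groups of Mcm5 were again separate and in the same order, with log2 fold changes of 0.84 ± 0.06 (adjusted p 4.88e-09) and 2.06 ± 0.07 (adjusted p 1.08e-12) against LN. Mcm3, Mcm6 and Mcm7 rose in Hepa1-6 by log2 fold changes of 1.18, 0.94 and 0.56, and in E.G7 by 2.30, 1.76 and 1.57. Per length, the MCM ring was already abundant in LN: Mcm6 had the highest FPKM of all 48 genes there (51.8 ± 1.55, SD, n = 4), followed by Pcna (48.9 ± 3.89) and Mcm4 (37.4 ± 2.52).

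Mcm10, Cdc6, Cdc45, Gins1 and Gins2, which load the ring or turn it on, each rose more in both tumours than any of the 6 ring subunits. Cdt1, which also loads the ring, did not. Mcm10 (chr2:4989714-5012791), which is needed to activate the helicase, was at 1.90, 5.12, 3.93 and 3.53 CPM in LN, 17.2, 17.5, 15.3 and 13.4 in Hepa1-6 and 72.4 and 58.9 in E.G7. It had the largest rise of the 48 genes in E.G7 (18.1-fold, log2 4.18 ± 0.23, adjusted p 2.85e-09) and the largest of the replication genes in Hepa1-6 (4.37-fold, log2 2.13 ± 0.21, adjusted p 7.97e-07). Per length Mcm10 was also the lowest replication gene in LN (0.475 ± 0.175 FPKM, SD, n = 4). Cdc6 (chr11:98907801-98923940), which helps load the ring, was at 8.34, 6.59, 8.59 and 8.11 CPM in LN, 20.7, 19.5, 18.7 and 17.9 in Hepa1-6 and 84.5 and 73.5 in E.G7. Cdc6 rose less in Hepa1-6 (2.43-fold, log2 1.28 ± 0.10, adjusted p 1.80e-08) than in E.G7 (9.99-fold, log2 3.32 ± 0.12, adjusted p 1.29e-12). Cdt1, its partner in loading, went from 25.7 ± 0.756 CPM in LN to 49.5 ± 2.16 in Hepa1-6 and 82.3 ± 4.84 in E.G7 (mean ± SD). Log2 fold changes of Cdt1, 0.95 in Hepa1-6 and 1.68 in E.G7, were below those of the ring subunit Mcm3 (1.18 and 2.30). Of the helicase activators, Cdc45 rose by log2 fold changes of 1.56 and 2.98, and the GINS subunits Gins1 and Gins2 rose by 1.58 and 1.79 in Hepa1-6 and by 2.56 and 2.70 in E.G7.

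The 5 fork genes were the replication role with the smallest median change, 0.75 in Hepa1-6 and 1.62 in E.G7 on the log2 scale. Pcna (chr2:132249162-132253314), the sliding clamp, was at 119, 128, 106 and 113 CPM in LN, 167, 163, 168 and 186 in Hepa1-6 and 271 and 287 in E.G7. Its groups did not overlap, but its rise in E.G7 was the smallest of the 48 genes (log2 fold changes 0.55 ± 0.06, adjusted p 1.25e-06, in Hepa1-6 and 1.26 ± 0.07, adjusted p 7.27e-10, in E.G7). Lig1 (chr7:13277283-13311433), the ligase that seals the fragments of the lagging strand, was at 31.1, 26.7, 30.3 and 33.1 CPM in LN, 89.6, 89.1, 96.2 and 87.9 in Hepa1-6 and 147 and 143 in E.G7. In Hepa1-6 it rose by the most of the 5 fork genes (2.99-fold, log2 1.58 ± 0.07, adjusted p 8.27e-12), and in E.G7 it was 4.77-fold above LN (log2 2.25 ± 0.08, adjusted p 1.44e-12). Pola1 and Prim1, the catalytic subunits of polymerase alpha and primase, rose by log2 fold changes of 0.65 and 0.75 in Hepa1-6 and 1.86 and 1.62 in E.G7. Per length, Fen1, the flap nuclease, was the lowest of the fork genes (1.12 ± 0.238 FPKM in LN, 1.89 ± 0.198 in Hepa1-6 and 3.02 ± 0.0505 in E.G7, mean ± SD). Fen1 was at 2.69 ± 0.575 CPM in LN, 4.59 ± 0.476 in Hepa1-6 and 7.37 ± 0.128 in E.G7, and rose by log2 fold changes of 0.77 and 1.45. Exons of Fen1 overlap those of Gm10143 and Tmem258 on the other strand, and the sources used here do not give the strand setting of the counting, so its level is uncertain.

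The 4 nucleotide genes rose by log2 fold changes of 0.71 to 1.86 in Hepa1-6 (median 1.30) and 1.46 to 3.64 in E.G7 (median 2.25). Rrm2 (chr12:24708241-24714146), the ribonucleotide reductase subunit that is made in S phase, was at 27.9, 23.3, 25.2 and 26.7 CPM in LN, 94.3, 98.2, 91.3 and 89.1 in Hepa1-6 and 330.4 and 310.4 in E.G7. The rise was 3.62-fold in Hepa1-6 (log2 1.86 ± 0.06, adjusted p 4.66e-13) and 12.4-fold in E.G7 (log2 3.64 ± 0.07, adjusted p 3.44e-15), with no overlap between any of the 3 groups. Rrm1 (chr7:102441695-102469771), the large subunit of the same enzyme, was at 79.0, 74.8, 80.1 and 78.6 CPM in LN, 184, 185, 177 and 186 in Hepa1-6 and 449 and 385 in E.G7. Its log2 fold changes of 1.23 ± 0.06 (adjusted p 1.02e-11) and 2.42 ± 0.06 (adjusted p 5.37e-14) were smaller than those of Rrm2 in both tumours. Tyms (chr5:30058202-30073617), which makes thymidylate, was at 35.6, 39.4, 39.7 and 38.0 CPM in LN, 67.1, 59.9, 56.7 and 65.9 in Hepa1-6 and 162 and 162 in E.G7. Tyms had the smallest rise of the 4 in Hepa1-6 (1.63-fold, log2 0.71 ± 0.07, adjusted p 1.44e-07) and a 4.24-fold rise in E.G7 (log2 2.08 ± 0.08, adjusted p 3.00e-12). Tk1, thymidine kinase 1 of the salvage pathway, was at 19.6 ± 0.641 CPM in LN (mean ± SD, n = 4) and at 49.8, 52.5, 51.3 and 49.2 CPM in the Hepa1-6 libraries and 53.2 and 55.2 in those of E.G7. Its log2 fold changes over LN were 1.37 ± 0.07 in Hepa1-6 and 1.46 ± 0.08 in E.G7.

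Cyclin E activates CDK2 at the start of S phase. Ccne1 (chr7:38097984-38107534) was at 9.52, 11.4, 11.6 and 12.3 CPM in LN, 22.7, 20.7, 21.2 and 27.1 in Hepa1-6 and 69.5 and 68.7 in E.G7. Both E.G7 libraries were far above Hepa1-6, which was above LN (log2 fold changes against LN 1.03 ± 0.11, adjusted p 3.65e-07, and 2.63 ± 0.12, adjusted p 3.66e-11). Ccne2 (chr4:11191351-11204779) was at 8.65, 7.13, 7.71 and 7.61 CPM in LN, 13.2, 14.1, 11.6 and 17.1 in Hepa1-6 and 26.3 and 24.6 in E.G7. Its order was the same with smaller steps (log2 fold changes 0.85 ± 0.13, adjusted p 2.87e-05, and 1.71 ± 0.15, adjusted p 7.21e-08).

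**Figure D2:**
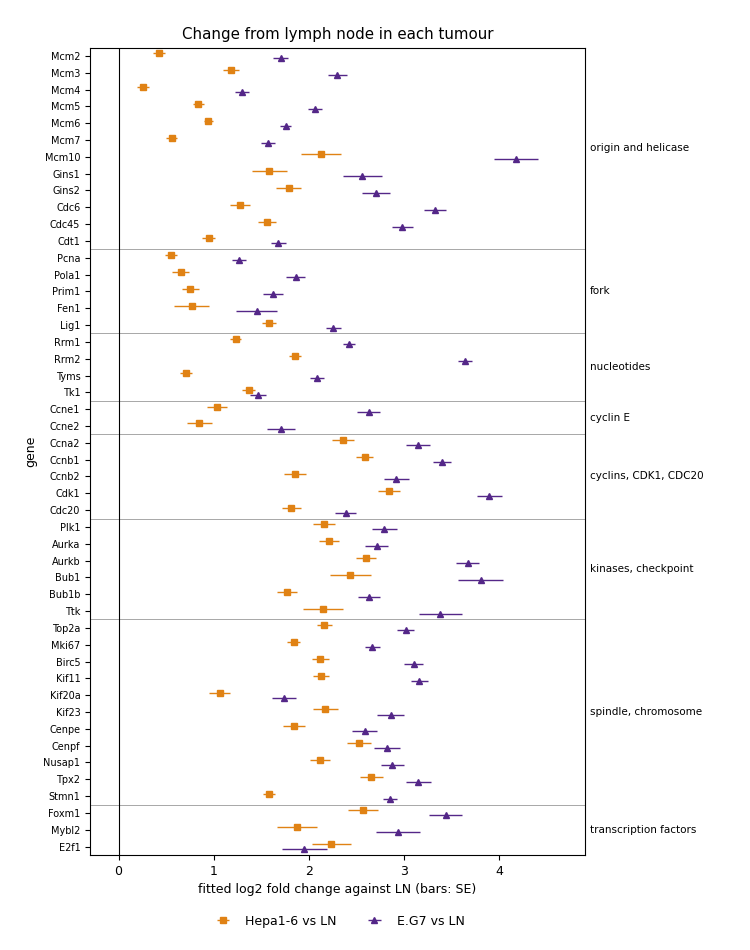
Fitted log2 fold change against LN for each of the 48 genes in Hepa1-6 (squares) and E.G7 (triangles), with bars of 1 SE, grouped by role. In Hepa1-6 the replication genes run from 0.26 (Mcm4) to 2.13 (Mcm10) and the mitosis genes from 1.06 (Kif20a) to 2.84 (Cdk1); every gene but E2f1 lies further right in E.G7.

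The 5 genes of the mitotic engine, 3 cyclins, Cdk1 and Cdc20, rose by log2 fold changes of 1.82 to 2.84 in Hepa1-6 (median 2.36) and 2.39 to 3.90 in E.G7 (median 3.15). Cdk1 (chr10:69335146-69352938), the kinase that drives entry into mitosis, was at 6.28, 5.47, 5.46 and 8.03 CPM in LN, 45.0, 40.1, 46.2 and 49.6 in Hepa1-6 and 91.0 and 97.1 in E.G7. Its rise of 7.16-fold was the largest of the 48 genes in Hepa1-6 (log2 2.84 ± 0.12, adjusted p 3.48e-12), and in E.G7 it was 14.9-fold above LN (log2 3.90 ± 0.13, adjusted p 7.25e-13). Ccnb1 (chr13:100778650-100786570), cyclin B1 and partner of CDK1, was at 9.44, 8.32, 8.23 and 9.20 CPM in LN, 46.9, 56.3, 55.0 and 53.0 in Hepa1-6 and 93.2 and 92.8 in E.G7. The 4 LN libraries were within a narrow band, and every tumour library was above it (log2 fold changes 2.58 ± 0.08, adjusted p 2.05e-13, and 3.40 ± 0.09, adjusted p 1.05e-13). Cdc20 (chr4:118432901-118437352), which turns on the anaphase-promoting complex, was at 13.9, 18.0, 13.7 and 18.2 CPM in LN, 53.6, 55.8, 57.6 and 58.1 in Hepa1-6 and 89.4 and 77.7 in E.G7. It rose least of the 5 (log2 fold changes 1.82 ± 0.10, adjusted p 1.25e-10, and 2.39 ± 0.11, adjusted p 4.58e-11). Cyclins A2 and B2 (Ccna2 and Ccnb2) rose by log2 fold changes of 2.36 and 1.85 in Hepa1-6 and 3.15 and 2.92 in E.G7.

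The 6 mitotic kinase and checkpoint genes rose by log2 fold changes of 1.77 to 2.60 in Hepa1-6 (median 2.18) and 2.63 to 3.81 in E.G7 (median 3.09). Aurkb (chr11:69045647-69051664), the kinase of the chromosomal passenger complex, was at 8.85, 5.93, 7.95 and 7.06 CPM in LN, 40.5, 46.2, 46.5 and 47.2 in Hepa1-6 and 97.7 and 91.8 in E.G7. The lowest Hepa1-6 library was above every LN library and below both E.G7 libraries (log2 fold changes 2.60 ± 0.11, adjusted p 4.04e-12, and 3.67 ± 0.12, adjusted p 6.44e-13, against LN). Bub1b (chr2:118598211-118641591), a spindle checkpoint protein, was at 14.1, 14.0, 10.5 and 14.8 CPM in LN, 41.8, 48.4, 48.1 and 44.3 in Hepa1-6 and 89.5 and 76.0 in E.G7. It had the smallest rise of the 6 in Hepa1-6 (log2 1.77 ± 0.11, adjusted p 3.89e-10) and in E.G7 (log2 2.63 ± 0.12, adjusted p 2.95e-11). The checkpoint kinase Bub1 was at 2.96, 4.20, 2.13 and 5.43 CPM in LN, 19.9, 16.6, 22.2 and 21.2 in Hepa1-6 and 56.2 and 47.1 in E.G7. Ttk, another checkpoint kinase, was scarce in LN (1.93 ± 0.751 CPM, mean ± SD) and reached 8.59 ± 0.717 in Hepa1-6 and 20.2 ± 0.281 in E.G7. Plk1 and Aurka, kinases of spindle assembly, rose by log2 fold changes of 2.16 and 2.21 in Hepa1-6 and 2.79 and 2.71 in E.G7.

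The 11 genes of the spindle, the chromosomes and cytokinesis rose by log2 fold changes of 1.06 to 2.66 in Hepa1-6 (median 2.12) and 1.74 to 3.16 in E.G7 (median 2.86). Top2a (chr11:98992943-99024189), the topoisomerase that untangles sister chromatids, was at 36.9, 34.1, 43.6 and 44.7 CPM in LN, 167, 177, 183 and 186 in Hepa1-6 and 332 and 312 in E.G7. Mki67 (chr7:135689784-135716361), which encodes the proliferation marker Ki-67 that coats mitotic chromosomes, was at 23.3, 28.6, 25.5 and 25.6 CPM in LN, 97.0, 92.3, 89.8 and 90.1 in Hepa1-6 and 159.5 and 168 in E.G7. For both genes the groups were separate in the order LN, Hepa1-6, E.G7, with rises over LN of 4.48-fold and 8.10-fold for Top2a (log2 2.16 ± 0.08, adjusted p 9.57e-13, and 3.02 ± 0.09, adjusted p 2.43e-13). The rises of Mki67 were 3.58-fold and 6.35-fold (log2 1.84 ± 0.07, adjusted p 9.18e-13, and 2.67 ± 0.08, adjusted p 1.60e-13). Tpx2 (chr2:152847964-152895321), which activates Aurora A on the spindle, was at 9.56, 9.40, 8.23 and 6.17 CPM in LN, 51.1, 50.4, 50.6 and 58.3 in Hepa1-6 and 79.4 and 68.7 in E.G7. It rose most of the 11 in Hepa1-6 (log2 2.66 ± 0.12, adjusted p 1.10e-11), and its E.G7 libraries were the top 2 (log2 3.15 ± 0.13, adjusted p 1.20e-11).

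Kif11 (chr19:37376403-37421859), the motor that separates the spindle poles, was at 18.6, 17.4, 21.2 and 17.4 CPM in LN, 81.4, 78.9, 89.4 and 76.4 in Hepa1-6 and 177 and 156 in E.G7. It had the largest rise of the 11 in E.G7 (log2 3.16 ± 0.09, adjusted p 1.60e-13), after a rise of 2.13 ± 0.08 in Hepa1-6 (adjusted p 1.38e-12). Stmn1 (chr4:134468320-134473843), stathmin, which destabilises microtubules, was at 35.3, 36.2, 30.9 and 37.5 CPM in LN, 101, 104, 106 and 108 in Hepa1-6 and 252 and 254 in E.G7. Per length it was the highest of the 22 mitosis genes in every group (18.4 ± 1.46 FPKM in LN, 54.2 ± 1.70 in Hepa1-6 and 130.5 ± 0.661 in E.G7, mean ± SD), and it rose by log2 fold changes of 1.58 ± 0.06 (adjusted p 2.54e-12) and 2.85 ± 0.07 (adjusted p 3.72e-14). Kif20a, a motor of cytokinesis, was at 11.9, 14.3, 14.6 and 14.2 CPM in LN, 25.6, 27.1, 27.9 and 34.3 in Hepa1-6 and 48.6 and 43.1 in E.G7. Its rise was the smallest of the 22 mitosis genes in both tumours (log2 1.06 ± 0.11, adjusted p 3.22e-07, and 1.74 ± 0.13, adjusted p 7.64e-09), and its exons overlap those of Cdc23 on the other strand. The remaining 5, Birc5 of the passenger complex, the cytokinesis motor Kif23, the kinetochore proteins Cenpe and Cenpf and the spindle protein Nusap1, rose by log2 fold changes of 1.85 (Cenpe) to 2.53 (Cenpf) in Hepa1-6 and 2.59 (Cenpe) to 3.10 (Birc5) in E.G7.

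The 3 transcription factors that drive these programmes were all scarce in LN and higher in the tumours. Foxm1 (chr6:128362967-128376146), a forkhead factor of the G2 programme, was at 2.96, 1.62, 2.65 and 2.56 CPM in LN, 15.0, 15.8, 13.9 and 13.6 in Hepa1-6 and 26.1 and 27.0 in E.G7. The groups were separate, with log2 fold changes of 2.57 ± 0.16 (adjusted p 5.74e-10) and 3.44 ± 0.17 (adjusted p 1.14e-10) against LN. Mybl2 (chr2:163054687-163084688), the B-Myb subunit of the complex that activates CHR promoters, was at 2.73, 2.58, 3.57 and 3.49 CPM in LN, 14.3, 14.3, 9.19 and 7.46 in Hepa1-6 and 23.4 and 24.1 in E.G7. The Hepa1-6 libraries were spread more widely than for most members, and all were above LN (log2 1.87 ± 0.21, adjusted p 1.14e-06) and below E.G7 (log2 over LN 2.94 ± 0.23, adjusted p 3.31e-08). E2f1 (chr2:154559407-154569892), an activator of S phase genes, was at 2.49, 3.54, 1.89 and 2.33 CPM in LN, 13.5, 12.9, 13.4 and 8.62 in Hepa1-6 and 8.61 and 11.2 in E.G7. It was the 1 member of the 48 whose mean was not higher in E.G7 than in Hepa1-6, and those groups overlapped (log2 over LN 2.24 ± 0.21, adjusted p 9.43e-08, in Hepa1-6 and 1.95 ± 0.24, adjusted p 3.21e-06, in E.G7).

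Per length, the median replication gene was above the median mitosis gene in LN and in E.G7, and slightly below it in Hepa1-6. The median replication gene was at 6.33 FPKM in LN, 10.2 in Hepa1-6 and 26.0 in E.G7. The median mitosis gene was at 2.57 FPKM in LN, 11.0 in Hepa1-6 and 19.1 in E.G7. To follow the classes against each other within a library, the mean log2(CPM + 0.1) over 1 class was subtracted from that over the other. This difference is read only for how it changes between groups, since CPM does not correct for gene length. The mean over the 23 replication genes minus that over the 22 mitosis genes was 1.21, 1.32, 1.39 and 1.21 in the LN libraries, 0.27, 0.26, 0.17 and 0.20 in Hepa1-6 and 0.50 and 0.49 in E.G7. No library of one group fell within the range of another. From LN to Hepa1-6 the difference fell by 1.06, as the replication mean rose by 1.08 and the mitosis mean by 2.14. From LN to E.G7 it fell by 0.79, with rises of 2.19 and 2.98. Between the tumours the order of the steps was the other way: from Hepa1-6 to E.G7 the replication mean rose by 1.11 and the mitosis mean by 0.84, so the difference rose by 0.27. With CPM divided by gene length the 3 changes were -1.02, -0.75 and 0.27. This is no separate check, since a length is the same in every library. It cancels from a change except through the constant added before the log. These means over chosen genes were not tested.

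**Figure D3:**
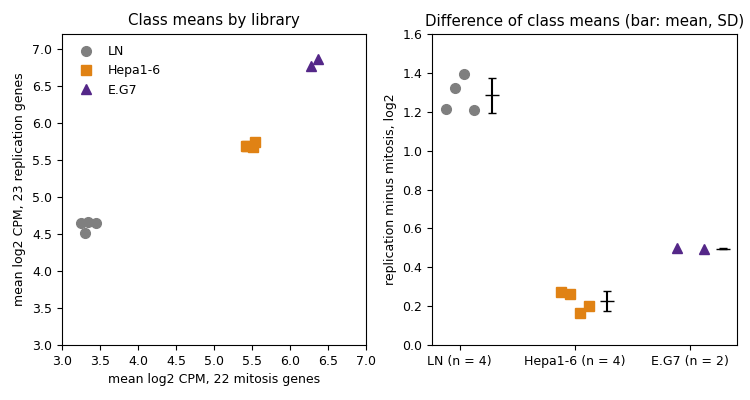
Left, mean log2 CPM of the 23 replication genes against that of the 22 mitosis genes, 1 point per library and without correction for gene length. Right, the difference of the class means (replication minus mitosis, log2) per library, with the mean and SD of each group; LN libraries sit at 1.21 to 1.39, Hepa1-6 at 0.17 to 0.27 and E.G7 at 0.49 to 0.50.

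Within the replication class, genes with and without each set of letters had overlapping changes. The 8 replication genes with E2F-type letters had a median log2 fold change of 0.94 in Hepa1-6 (range 0.56 to 1.58), and the 11 replication genes whose promoter lacked them had 1.03 (range 0.43 to 2.13). In E.G7 the medians were 1.96 and 2.08. The 7 replication genes with CHR letters had a median of 1.03 in Hepa1-6 (range 0.43 to 1.86), beside 0.94 (range 0.55 to 2.13) for the 12 whose promoter lacked them. In the mitosis class, the 15 genes with CHR letters had a median of 2.15 in Hepa1-6 and 2.86 in E.G7. The 2 mitosis genes whose promoter lacked them had higher medians, 2.28 and 3.34. Cdk1, the mitosis gene with both kinds of letters in the stretch printed above, had the largest rise in Hepa1-6, but it is a single gene. Fen1, Mcm2 and Cdc45 held the TTTGAA letters that most mitosis promoters held, and their log2 fold changes in Hepa1-6 were 0.77, 0.43 and 1.56. Every replication gene, with or without these letters, was below the mitosis median of 2.15 (the largest was 2.13, Mcm10). A comparison with that median therefore cannot separate replication genes with the letters from those without. These medians are descriptions, with no test.

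The E.G7 libraries held more of nearly all these transcripts than the Hepa1-6 libraries. Of the 48 genes, 45 were called higher in E.G7 and 0 lower, where 19.6% of all genes tested were called higher and 26.1% lower. The median log2 difference was 0.89 beside -0.06 for all genes tested, and 21 members were at least 2-fold higher, as 6.38% of all genes tested were. Libraries of E.G7 were all above those of Hepa1-6 for 47 genes, the exception being E2f1, where 26.2% of all genes tested were so placed. The 3 genes not called were Tk1 (log2 difference 0.10 ± 0.08, adjusted p 0.364), Cenpf (0.29 ± 0.13, adjusted p 0.0834) and E2f1 (-0.29 ± 0.23, adjusted p 0.345). Cenpf passed the threshold in 6 of the other settings, among them DESeq2 (log2 0.31, adjusted p 0.0394). No gene was called lower by edgeR, DESeq2 or limma-voom, and by edgeR none was lower at an unadjusted p under 0.05 (E2f1, the 1 gene with a negative difference, had an unadjusted p of 0.234). Tested by edgeR against a minimum change of 1.5-fold, 30 genes were called higher, 17 of replication and 12 of mitosis.

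Between the tumours the larger median difference was that of the replication genes, whereas against LN it was that of the mitosis genes. The median log2 difference was 1.03 for the 23 replication genes (22 called) and 0.82 for the 22 mitosis genes (21 called). At least 2-fold higher in E.G7 were 13 replication genes and 7 mitosis genes. Cdc6, whose values by library stand above, was 4.11-fold higher (log2 2.04 ± 0.11, adjusted p 5.24e-10) and Mcm10 was 4.14-fold higher (log2 2.05 ± 0.21, adjusted p 2.94e-06). Rrm2 was 3.44-fold higher (log2 1.78 ± 0.07, adjusted p 1.37e-11), and Rrm1 2.28-fold (log2 1.19 ± 0.06, adjusted p 4.02e-10). Cyclin E1 differed by a log2 of 1.59 ± 0.12 (adjusted p 2.07e-08), and the helicase subunit Mcm2, which after Mcm4 rose least in Hepa1-6, by 1.28 ± 0.08 (adjusted p 1.42e-09). Among mitosis genes the strongest calls were Stmn1 (log2 1.27 ± 0.07, adjusted p 6.90e-10), Kif11 (1.03 ± 0.09, adjusted p 1.09e-07) and Mki67 (0.83 ± 0.08, adjusted p 2.44e-07). The kinases Bub1 and Ttk differed by 1.37 and 1.23, and the spindle genes Tpx2 and Aurka by only 0.49 and 0.50. With a single E.G7 library the direction was unchanged for every called member, but Fen1 lost its call without replicate 1 (adjusted p 0.0855) or replicate 2 (adjusted p 0.0723), and Tpx2 lost it without replicate 1 (log2 0.39, adjusted p 0.0909).

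**Figure D4:**
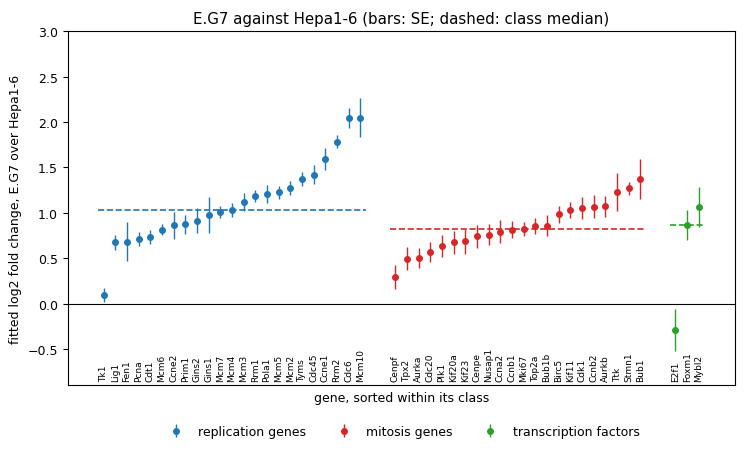
Fitted log2 difference of E.G7 over Hepa1-6 for each of the 48 genes, sorted within its class, with bars of 1 SE and a dashed line at each class median (replication 1.03, mitosis 0.82). Tk1, Cenpf and E2f1 are the 3 genes whose adjusted p missed the threshold.

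Other RNA moved with this comparison. Myeloid, hepatoma, stromal, CD8 T and NK, and erythroid marker sums were lower in E.G7 than in Hepa1-6, as given above. Of the 14 myeloid markers all 14 were called lower. The 6 Treg markers were also all called lower in E.G7, among them Foxp3 (47.1 to 53.3 CPM, beside 73.8 to 97.3 in Hepa1-6). In contrast, the B cell marker sum was higher in E.G7 (622 to 631 CPM) than in Hepa1-6 (371 to 441). Dntt and Trap1a were higher in E.G7, at 43.4 to 49.8 and 121 to 132 CPM, while Rag1 and Rag2 were at 0 there. E.G7 is a dividing T lymphoma line, and the part of lymphoma RNA in the E.G7 values, or of hepatoma and myeloid RNA in the Hepa1-6 values, was not tested. Tumour line and day of collection cannot be told apart in this comparison.

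Genes with neighbouring roles that are not among the 48 were read from 5 lists, 108 genes in all, every one tested. Against LN, 79 of the 108 were called higher and 15 lower in Hepa1-6, beside 37.0% of all genes tested called higher and 31.1% called lower. In E.G7, 92 were higher and 10 lower than in LN, beside 32.7% and 27.2% of all genes tested. Of 35 further replication genes, 23 were called higher and 7 lower in Hepa1-6 (median log2 fold change 0.44), and 32 higher in E.G7 with 3 not called (median 1.33). Of 40 further mitosis genes, 38 were called higher and 1 lower in Hepa1-6 (median 1.82), and 39 higher and 1 lower in E.G7 (median 2.62). These lists were compiled with earlier results of these data known and are no independent support for the order of the classes.

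Subunits of 1 complex moved unequally in the replication list. In the origin recognition complex, Orc1 went from 3.77 ± 0.371 CPM in LN to 10.1 ± 1.36 in Hepa1-6 and 23.9 ± 0.842 in E.G7 (mean ± SD), and Orc6 from 20.1 ± 0.870 to 40.5 ± 2.63 and 69.4 ± 0.132. Orc5 was called lower in Hepa1-6 than in LN (log2 -0.90 ± 0.13). Orc2, Orc3 and Orc4 were also called lower there (log2 -0.23, -0.30 and -0.23), but with scaling to general T cell genes they were at 0.061, -0.011 and 0.061 and none was called, and Orc2 lost its call without LN replicate 2 (log2 -0.17, adjusted p 0.0781) or Hepa1-6 replicate 3 (log2 -0.21, adjusted p 0.0661). That scaling raised the median log2 fold change of all genes tested from 0.04 to 0.33 in Hepa1-6 and from 0.01 to 0.32 in E.G7. In E.G7, Orc2 was called higher than in LN (log2 1.05 ± 0.10), and Orc3, Orc4 and Orc5 were not called (0.01, -0.12 and -0.30). In GINS, Gins1 and Gins2 rose in Hepa1-6, Gins3 fell (log2 -0.63 ± 0.14) and Gins4 was at -0.01, not called (called lower at -0.19 with upper-quartile scaling and higher at 0.29 with scaling to general T cell genes). In E.G7 all 4 GINS subunits were called higher than in LN. The kinase Cdc7, which fires origins, fell in Hepa1-6 (log2 -0.72 ± 0.10) while its activator Dbf4 rose (0.99 ± 0.13), and in E.G7 both were called higher than in LN (0.36 and 1.92). The E.G7 call of Cdc7 was lost with upper-quartile scaling (log2 0.24, adjusted p 0.0929) or without E.G7 replicate 1 (log2 0.23, adjusted p 0.216). Chaf1a, the large subunit of the chromatin assembly factor that works behind the fork, was at 7.39, 6.43, 5.42 and 6.02 CPM in LN, 35.6, 36.1, 33.1 and 36.3 in Hepa1-6 and 82.1 and 74.3 in E.G7. Uhrf1, which brings the maintenance methyltransferase to newly copied DNA, was at 32.3, 27.8, 31.6 and 36.2 CPM in LN, 109.6, 116, 110.0 and 91.9 in Hepa1-6 and 255 and 233 in E.G7. Both were raised without overlap in each tumour (log2 in Hepa1-6 2.48 ± 0.10, adjusted p 2.47e-12, for Chaf1a and 1.74 ± 0.09, adjusted p 4.19e-11, for Uhrf1). On the other strand, exons of Ubxn6 overlap those of Chaf1a, and exons of Nif3l1 overlap those of Orc2. With upper-quartile scaling the number of the 108 genes lower in Hepa1-6 than in LN was 23, and with scaling to general T cell genes it was 9.

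**Figure D5:**
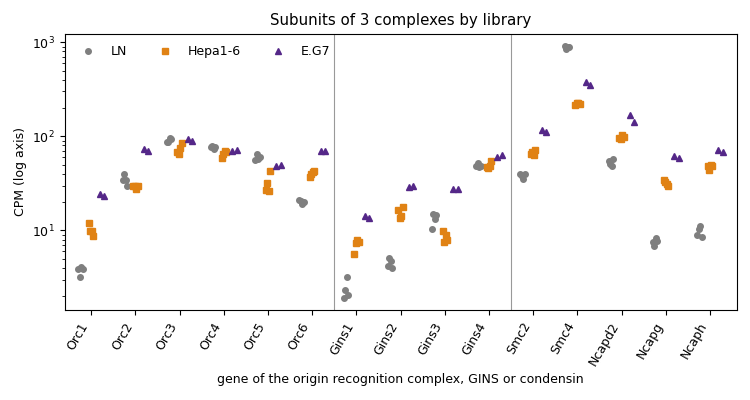
CPM (log axis) in each library for 6 subunits of the origin recognition complex, 4 of GINS and 5 of condensin. Orc1, Orc6, Gins1, Gins2 and 4 condensin genes are lowest in LN, whereas Smc4 is highest in LN.

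Among mitosis genes the exception was Smc4, an ATPase subunit of condensin, which compacts mitotic chromosomes. It was at 904, 854, 885 and 887 CPM in LN, 216, 225, 229 and 222 in Hepa1-6 and 379.9 and 353 in E.G7. All 4 LN libraries were above every tumour library (log2 -1.99 ± 0.04, adjusted p 1.76e-15, in Hepa1-6 and -1.27 ± 0.06, adjusted p 1.76e-11, in E.G7). Its partner subunits rose: Smc2 by log2 fold changes of 0.80 and 1.57, Ncapd2 by 0.89 and 1.56, Ncapg by 2.08 and 2.99, and Ncaph by 2.29 and 2.84. Ube2c, the ubiquitin-conjugating enzyme of the anaphase-promoting complex, was at 6.56, 5.70, 4.34 and 5.01 CPM in LN, 54.7, 50.0, 56.2 and 59.0 in Hepa1-6 and 73.1 and 77.4 in E.G7. Every tumour library was far above LN (log2 3.35 ± 0.11, adjusted p 2.38e-13, and 3.80 ± 0.12, adjusted p 5.15e-13). Exons of Ube2c overlap those of Tnnc2 on the other strand.

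Among drivers and brakes of the G1 phase some were called higher and some lower, as were 37.0% and 31.1% of all genes tested in Hepa1-6, and for E.G7 32.7% and 27.2%. Of 10 drivers, 7 were called higher and 2 lower in Hepa1-6 (median log2 fold change 0.96), and 8 higher and 2 lower in E.G7 (median 0.99). Ccnd1, cyclin D1, was at 0.711, 0.809, 0.883 and 1.16 CPM in LN, 50.3, 55.6, 51.0 and 51.3 in Hepa1-6 and 40.9 and 35.9 in E.G7. It was low in LN and high in every tumour library (log2 5.86 ± 0.13, adjusted p 1.78e-15, and 5.42 ± 0.14, adjusted p 4.53e-14), while Ccnd2 and Ccnd3, the D cyclins abundant in LN, were 1.45-fold and 1.40-fold lower in Hepa1-6. Cdk6, a kinase partner of D cyclins, was at 133, 125, 141 and 134 CPM in LN, 412, 429, 424 and 394 in Hepa1-6 and 1192 and 1239 in E.G7. The groups were separate, with E.G7 highest (log2 over LN 1.64 ± 0.05, adjusted p 6.95e-14, and 3.19 ± 0.06, adjusted p 1.13e-15). Of 14 brakes, 5 were called higher and 3 lower in Hepa1-6 (median 0.11), and 6 higher and 5 lower in E.G7 (median 0.39); the number higher in Hepa1-6 is near the share over all genes tested. Cdkn1a, the CDK inhibitor p21, was at 4.07, 4.01, 4.54 and 4.62 CPM in LN, 434, 477, 450.1 and 458 in Hepa1-6 and 148 and 144 in E.G7. Its order differed from that of the 48 genes: Hepa1-6 was highest and E.G7 was 3.11-fold below it (log2 -1.64 ± 0.07, adjusted p 1.55e-11), and both were above LN (log2 6.72 ± 0.07, adjusted p 8.88e-19, and 5.09 ± 0.07, adjusted p 5.77e-17). Tob1, an antiproliferative factor of T cells, was at 42.8, 41.2, 36.1 and 36.9 CPM in LN, 173, 157, 152 and 149 in Hepa1-6 and 94.4 and 92.2 in E.G7. It had the same order as Cdkn1a (log2 over LN 2.01 ± 0.07, adjusted p 5.09e-13, and 1.25 ± 0.08, adjusted p 2.30e-09). Ccnd1, Cdkn1a and Tob1 were highest in Hepa1-6 and lowest in LN, as were the sums of the myeloid markers (3812 to 4109 CPM in Hepa1-6, 737 to 768 in E.G7 and 25.1 to 36.8 in LN) and of the CD8 T and NK markers (859 to 929.5, 325 to 328 and 33.9 to 41.3 CPM). The sums of the hepatoma, erythroid and Treg markers, given above, had the same order. The part of RNA of other cells in the values of Ccnd1, Cdkn1a and Tob1 was not tested. Cdkn1b, the inhibitor p27, was called lower in both tumours (log2 -0.86 and -0.87). Exons of Ccnd1, Cdk6 and Cdkn1a overlap those of a gene on the other strand.

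Of 9 genes of the DNA damage checkpoint and repair, 6 were called higher and 2 lower in Hepa1-6 (median log2 fold change 0.61), and 7 higher and 2 lower in E.G7 (median 1.22), beside 37.0% higher and 31.1% lower of all genes tested in Hepa1-6 and 32.7% and 27.2% in E.G7. Brca1, of recombination repair, was at 4.19, 4.74, 5.46 and 5.43 CPM in LN, 18.4, 15.9, 18.3 and 17.2 in Hepa1-6 and 41.8 and 29.7 in E.G7. Its order was that of the 48 genes (log2 over LN 1.82 ± 0.14, adjusted p 6.89e-09, and 2.85 ± 0.15, adjusted p 2.11e-10). Atm, the kinase that senses double-strand breaks, was at 82.7, 84.6, 83.5 and 80.5 CPM in LN, 32.7, 34.4, 30.7 and 30.0 in Hepa1-6 and 62.5 and 61.1 in E.G7. It was lowest in Hepa1-6 and highest in LN (log2 over LN -1.38 ± 0.06, adjusted p 1.56e-11, and -0.42 ± 0.08, adjusted p 1.90e-04), and the E.G7 call was lost with scaling to general T cell genes (log2 -0.12, adjusted p 0.226). Chek1, the checkpoint kinase of stalled forks, went from 5.75 ± 0.877 CPM in LN to 8.84 ± 1.67 in Hepa1-6 and 34.4 ± 0.655 in E.G7 (mean ± SD), and Atr, which activates it, was called lower than LN in both tumours (log2 -0.36 and -0.71), the first of which was lost with that scaling (log2 -0.06, adjusted p 0.645). Between the tumours, 80 of the 108 genes were called higher in E.G7 and 10 lower, beside 19.6% and 26.1% of all genes tested, and without E.G7 replicate 2 the number lower was 6.

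Counting limits touch some of these genes. Exons of 15 of the 48 overlap exons of another gene, among them Mcm7, Gins2, Cdc45, Fen1, Lig1, Tk1, Ccne2, Ccna2, Cdc20, Plk1, Kif20a and Nusap1 with a gene on the other strand. For 5 (Pcna, Tyms, Ccnb1, Ccnb2 and Stmn1) the table lists a pseudogene or related sequence, with summed means of at most 1.71 CPM.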

How the data were processed

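RNA sequencing of sorted mouse Treg cells gave 10 libraries, grouped by sample titles as LN, Hepa1-6 and E.G7. The deposited table holds whole-number read counts per gene, in the layout of featureCounts per the file headers. The deposited FPKM tables list 12930 genes per library; FPKM was computed by the authors. The build was mm10, and DESeq2, RSEM, HISAT2, Subread and featureCounts are named by the authors, per the submitters' processing notes. Their roles, versions and the strand setting are not given in the sources used here.

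The 48 genes, the related lists and the markers were chosen with earlier results of these data known. Counts were tested in R 4.3.3 with edgeR 4.0.16 (TMM scaling, filterByExpr, robust quasi-likelihood fit, 1 term per group over 10 libraries, 20068 genes, Benjamini-Hochberg adjusted p under 0.05). SE is the log2 fold change over the square root of F. The biological coefficient of variation was 13.0%. Alternatives used limma 3.58.1, DESeq2 1.42.0, other scalings and filters, and leaving out each library. Code was tested on simulated counts. No replicate pair was a repeat deposit (chi-square per degree of freedom 7.41 to 18.9 over 13 pairs).

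Values in every library are given for 14 fixed members, the largest and smallest change in Hepa1-6 in each role, the 3 smallest adjusted p between tumours in each class, and the 2 smallest in each related list. Other related genes were named after their values were seen.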

Additional observations from a re-analysis of the deposited data

Results flagged for a closer look

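In 6 of 96 groups of 4 libraries, 1 library lay far from the others, by a test that chance alone passes in about 1 of 20 groups. For Mcm6, Hepa1-6 replicate 1 was at 437.9 CPM and the others at 464.9 to 469.0. For Aurka, Hepa1-6 replicate 4 was at 37.1 CPM and the others at 32.4 to 32.9. For Aurkb, Hepa1-6 replicate 1 was at 40.5 CPM and the others at 46.2 to 47.2. For Kif20a, LN replicate 1 was at 11.9 CPM and the others at 14.2 to 14.6. For Tpx2, Hepa1-6 replicate 4 was at 58.3 CPM and the others at 50.4 to 51.1. For E2f1, Hepa1-6 replicate 4 was at 8.62 CPM and the others at 12.9 to 13.5, so that the lowest Hepa1-6 value of E2f1 is the one that overlaps E.G7.

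The change from LN differed between the tumours, by the edgeR test of E.G7 against Hepa1-6, for 45 of the 48 genes, 22 of replication and 21 of mitosis. The differences of the 3 genes with the smallest adjusted p in each class were 1.78 for Rrm2, 1.19 for Rrm1, 2.04 for Cdc6, 1.27 for Stmn1, 1.03 for Kif11 and 0.83 for Mki67 on the log2 scale. Among related replication genes, 4 were called lower than LN in Hepa1-6 and higher in E.G7. The difference was 1.08 for Cdc7 (-0.72 and 0.36 against LN, adjusted p of the difference 1.15e-06 in edgeR) and 1.68 for Gins3 (-0.63 and 1.05, adjusted p 2.44e-07). It was 1.29 for Orc2 (-0.23 and 1.05, adjusted p 2.94e-08) and 0.75 for Timeless (-0.32 and 0.44, adjusted p 6.87e-05). Without E.G7 replicate 1 the E.G7 values of Timeless and Cdc7 were 0.31 (adjusted p 0.109 in edgeR) and 0.23 (adjusted p 0.216), not called. With scaling to general T cell genes the Hepa1-6 values of Orc2 and Timeless were 0.061 and -0.02, not called.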

How the results depend on the processing

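Across 23 other settings no member changed direction. Of 1007 member values for Hepa1-6 against LN, 7 lost their call: those of Mcm2, Mcm4, Mcm7, Pcna, Pola1 and Fen1 against a 1.5-fold minimum (glmTreat in edgeR), and Mcm4 with upper-quartile scaling. All 911 values for E.G7 against LN kept their call. Of 911 for E.G7 against Hepa1-6, 18 lost it and 6, all of Cenpf, gained it. Against the 1.5-fold minimum, 12 mitosis genes were higher in E.G7 than in Hepa1-6 (21 without the minimum). By the same test the related genes lower than LN were 4 in Hepa1-6 and 4 in E.G7, and 48 were higher and 3 lower in E.G7 than in Hepa1-6 (15, 10, 80 and 10 without the minimum). Related genes lower than LN were 23 in Hepa1-6 with upper-quartile scaling, and 9 in Hepa1-6 and 5 in E.G7 with scaling to general T cell genes. Leaving out 1 library at a time, 6 to 10 related genes were lower in E.G7 than in Hepa1-6, the 6 without E.G7 replicate 2, and with 1 E.G7 library its spread is assumed to be that of the other groups. In members of at least 10 CPM the change of the class difference from Hepa1-6 to E.G7 was 0.31 (0.27 in all). Of the related genes named, Gins4 in Hepa1-6 against LN was at 0.29 with scaling to general T cell genes (-0.01 otherwise), and Orc2 and Orc4 were at 0.061 and 0.061 (-0.23 and -0.23 otherwise); that scaling shifts all genes up. Replicate numbers did not pair the samples: correlations of same-numbered deviations ran from -0.11 to 0.11 over 8 pairs, 1 of them over 0.1. With the replicate number as a block, 48, 48 and 45 members were higher in the 3 comparisons, as without it. With 2 E.G7 libraries, differences that rest on E.G7 have the least replication.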
